A study of Drosophila melanogaster with 3 samples.

Results

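The 9 nuclear receptor genes Hr3, Hr4, Hr38, Hr39, Hr78, ftz-f1, svp, ERR and Hnf4 of Drosophila melanogaster were examined for binding of the nuclear protein Pipsqueak (Psq). They are 9 of 13968 protein-coding genes and were taken by name, and all peak summits inside a gene's span and 5 kb on each side of it were assigned to that gene. These windows held 69 of the 10105 nuclear summits of the authors' optimal peak list. Binding was measured by chromatin immunoprecipitation and sequencing (ChIP-seq) in a single group of 3 biological replicates. The material was whole wandering larvae of the third instar, both sexes pooled and age unknown, from 1 transgenic line in which psq carries GFP at its C-terminal end. Every replicate carries this transgene, and the precipitation used an anti-GFP antibody on sonicated chromatin. Library fragment sizes were 200 to 300 bp (replicate 1), 175 to 275 bp (replicate 2) and 175 to 250 bp (replicate 3). No untagged or other control sample was analysed here, and peak lists hold no expression by which the larval material could be checked against markers.

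Nuclear receptors are transcription factors with a zinc-finger DNA-binding domain and a domain that in many of them binds a small lipophilic ligand. At the end of larval life a pulse of the steroid ecdysone acts through its receptor, a dimer of EcR and Usp, on early regulatory genes and then on a relay of further receptors, among them Hr3, Hr4 and ftz-f1, whose sequence of expression times the passage to the prepupa and pupa. Psq is a BTB protein that binds DNA through Psq motifs and is known for its affinity to GA repeats.

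The replicates gave permissive lists of 28037, 28294 and 24291 peaks, and the read depth behind them is unknown. A region without a peak is therefore only without a call. Each peak carries the authors' own score. To set replicates side by side, the score of the highest replicate peak within 200 bp of an optimal summit was divided by the median of that replicate's 10138 highest-scoring peaks, which are called strong here. A value of 1 in this relative score is thus the level of a typical strong peak, and the weakest strong peak had 0.46, 0.468 and 0.421 in replicates 1, 2 and 3. A promoter is an annotated transcription start site (TSS), with TSSs of a gene within 300 bp of each other counted as 1 promoter, and it was called bound with an optimal summit within 500 bp. With 1 group no difference between conditions could be tested, so counts are given beside the same counts over all genes or all nuclear optimal peaks.

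Psq summits were found at 8 of the 9 receptor genes, and Hr38 had none. The share with a summit in the window over all protein-coding genes was 49.5%. Since long genes have large windows, the 7 members that span 20 kb or more can be read against genes of that length: 6 of the 7 had a summit, against 69.1% of 1020 such genes. The same 8 members had a summit within 1000 bp of an own TSS, against 28.7% of all genes, and so did 6 of the 7 long members, against 56.4% of the long genes. Of the 21 promoters of the members 14 were bound, against 25.6% of 17794 promoters of protein-coding genes. This share was not computed for long genes. The 14 include the RE and RA promoters of Hnf4, which share a summit. They also include an Hr78 promoter whose optimal summit had a peak within 200 bp in replicate 3 only. The density was 1.88 summits per 10 kb in the members' windows, against 0.94 over the windows of all protein-coding genes and 0.782 over those of the long genes.

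The summits were spread unevenly over the members. Hr4 held 24, ftz-f1 15, Hr39 11 and Hnf4 10, while Hr3 and ERR held 3 each, svp 2 and Hr78 1. A median gene had 0 and a median long gene 3. Fewer summits than in Hr4 were found in 97.7% of the long genes, and the corresponding share was 91.7% for ftz-f1, 85.3% for Hr39 and 83.3% for Hnf4. For Hr3, whose window held the highest score of the set, it was 49.7%. Per 10 kb, Hr39 led with 3.39 summits, followed by Hr4 with 3.16, Hnf4 with 3.09, ftz-f1 with 2.47 and ERR with 2.25, and svp was low with 0.37.

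**Figure D1:**
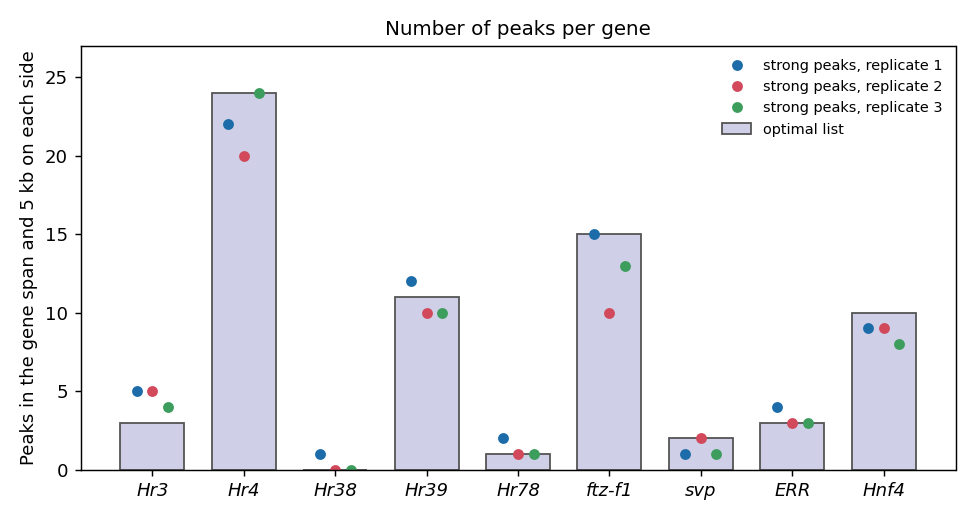
Peaks in the span and 5 kb flanks of each receptor gene (vertical axis, number of peaks). Bars give the optimal list and points give the strong peaks of each replicate; Hr4 holds 24 optimal peaks and 20 to 24 strong peaks, and Hr38 has a single strong peak, in replicate 1.

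The replicates gave like counts from their own lists. The members' windows held 71 strong peaks in replicate 1, 60 in replicate 2 and 64 in replicate 3 (65 ± 5.57, SD, n = 3). The lowest and highest counts among replicates were 20 and 24 in Hr4, 10 and 15 in ftz-f1, 10 and 12 in Hr39 and 8 and 9 in Hnf4. A strong peak lay within 200 bp of 81.2% ± 2.51 (SD, n = 3) of the optimal summits of the members. Of the 69 summits, 44 (63.8%) had a strong peak in all 3 replicates, against 58.3% of all nuclear optimal summits. A further 12 had a strong peak in a pair of replicates, 12 in a single replicate and 1 in none.

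The DNA under the summits is shown for 8 sites, chosen because they are the strongest sites of Hr39, ftz-f1, Hr4, svp and Hnf4 and the sites set against them below. Each window holds 100 bp on both sides of the summit and no annotated exon, is read 5′ to 3′ on the strand of the gene from the NCBI RefSeq sequence of the dm6 assembly, and has GAGAG or its complement CTCTC in capitals.
Hr39 proximal intronic site, chr2L:21237802-21238002, plus strand: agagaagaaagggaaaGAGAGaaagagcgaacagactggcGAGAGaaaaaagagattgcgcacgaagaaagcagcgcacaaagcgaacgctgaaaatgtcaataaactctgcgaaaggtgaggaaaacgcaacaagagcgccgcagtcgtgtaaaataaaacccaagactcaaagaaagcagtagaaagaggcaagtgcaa
Hr39 distal intronic site, chr2L:21250848-21251048, plus strand: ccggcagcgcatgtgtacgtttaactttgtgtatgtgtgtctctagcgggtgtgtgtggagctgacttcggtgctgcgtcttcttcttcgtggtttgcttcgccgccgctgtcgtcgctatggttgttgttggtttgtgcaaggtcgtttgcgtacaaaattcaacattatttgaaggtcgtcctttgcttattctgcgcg
ftz-f1 upstream site, chr3L:18801339-18801539, minus strand: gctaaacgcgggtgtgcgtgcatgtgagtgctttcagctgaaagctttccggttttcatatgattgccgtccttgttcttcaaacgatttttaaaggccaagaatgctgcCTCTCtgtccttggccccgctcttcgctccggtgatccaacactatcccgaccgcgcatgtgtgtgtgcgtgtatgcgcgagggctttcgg
ftz-f1 internal promoter site, chr3L:18765807-18766007, minus strand: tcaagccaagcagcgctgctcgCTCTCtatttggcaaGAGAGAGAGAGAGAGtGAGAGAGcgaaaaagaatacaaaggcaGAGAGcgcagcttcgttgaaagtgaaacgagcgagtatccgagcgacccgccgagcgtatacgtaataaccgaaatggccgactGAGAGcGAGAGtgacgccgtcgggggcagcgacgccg
Hr4 strongest intronic site, chrX:1947301-1947501, plus strand: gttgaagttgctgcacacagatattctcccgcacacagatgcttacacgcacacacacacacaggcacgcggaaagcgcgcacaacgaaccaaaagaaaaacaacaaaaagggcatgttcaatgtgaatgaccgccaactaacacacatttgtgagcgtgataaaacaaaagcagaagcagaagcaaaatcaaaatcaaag
Hr4 neighbouring intronic site, chrX:1948072-1948272, plus strand: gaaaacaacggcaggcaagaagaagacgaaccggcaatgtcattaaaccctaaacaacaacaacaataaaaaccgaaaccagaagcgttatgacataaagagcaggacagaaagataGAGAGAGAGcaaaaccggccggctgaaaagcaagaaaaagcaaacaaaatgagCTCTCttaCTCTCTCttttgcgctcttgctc
svp internal promoter site, chr3R:12280889-12281089, plus strand: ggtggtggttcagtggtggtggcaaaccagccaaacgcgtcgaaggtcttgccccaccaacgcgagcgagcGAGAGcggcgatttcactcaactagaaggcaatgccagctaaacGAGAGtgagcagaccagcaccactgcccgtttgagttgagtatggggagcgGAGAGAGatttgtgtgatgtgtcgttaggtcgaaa
Hnf4 strongest site, chr2L:8691617-8691817, minus strand: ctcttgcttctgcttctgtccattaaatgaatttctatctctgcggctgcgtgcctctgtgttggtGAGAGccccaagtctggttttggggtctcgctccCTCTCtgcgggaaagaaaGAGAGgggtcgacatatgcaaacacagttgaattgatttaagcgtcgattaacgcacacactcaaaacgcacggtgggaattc
GA repeats are present at some of these sites and not at others. The internal promoter site of ftz-f1 holds 12 GAGAG occurrences, some of them overlapping, and its longest GA run has 16 bp, and the second Hr4 site holds 6. The distal Hr39 site and the strongest Hr4 site have no GAGAG, and both hold CACACACA on either strand. The upstream ftz-f1 site holds CACACACA as well as GAGAG.

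**Figure D2:**
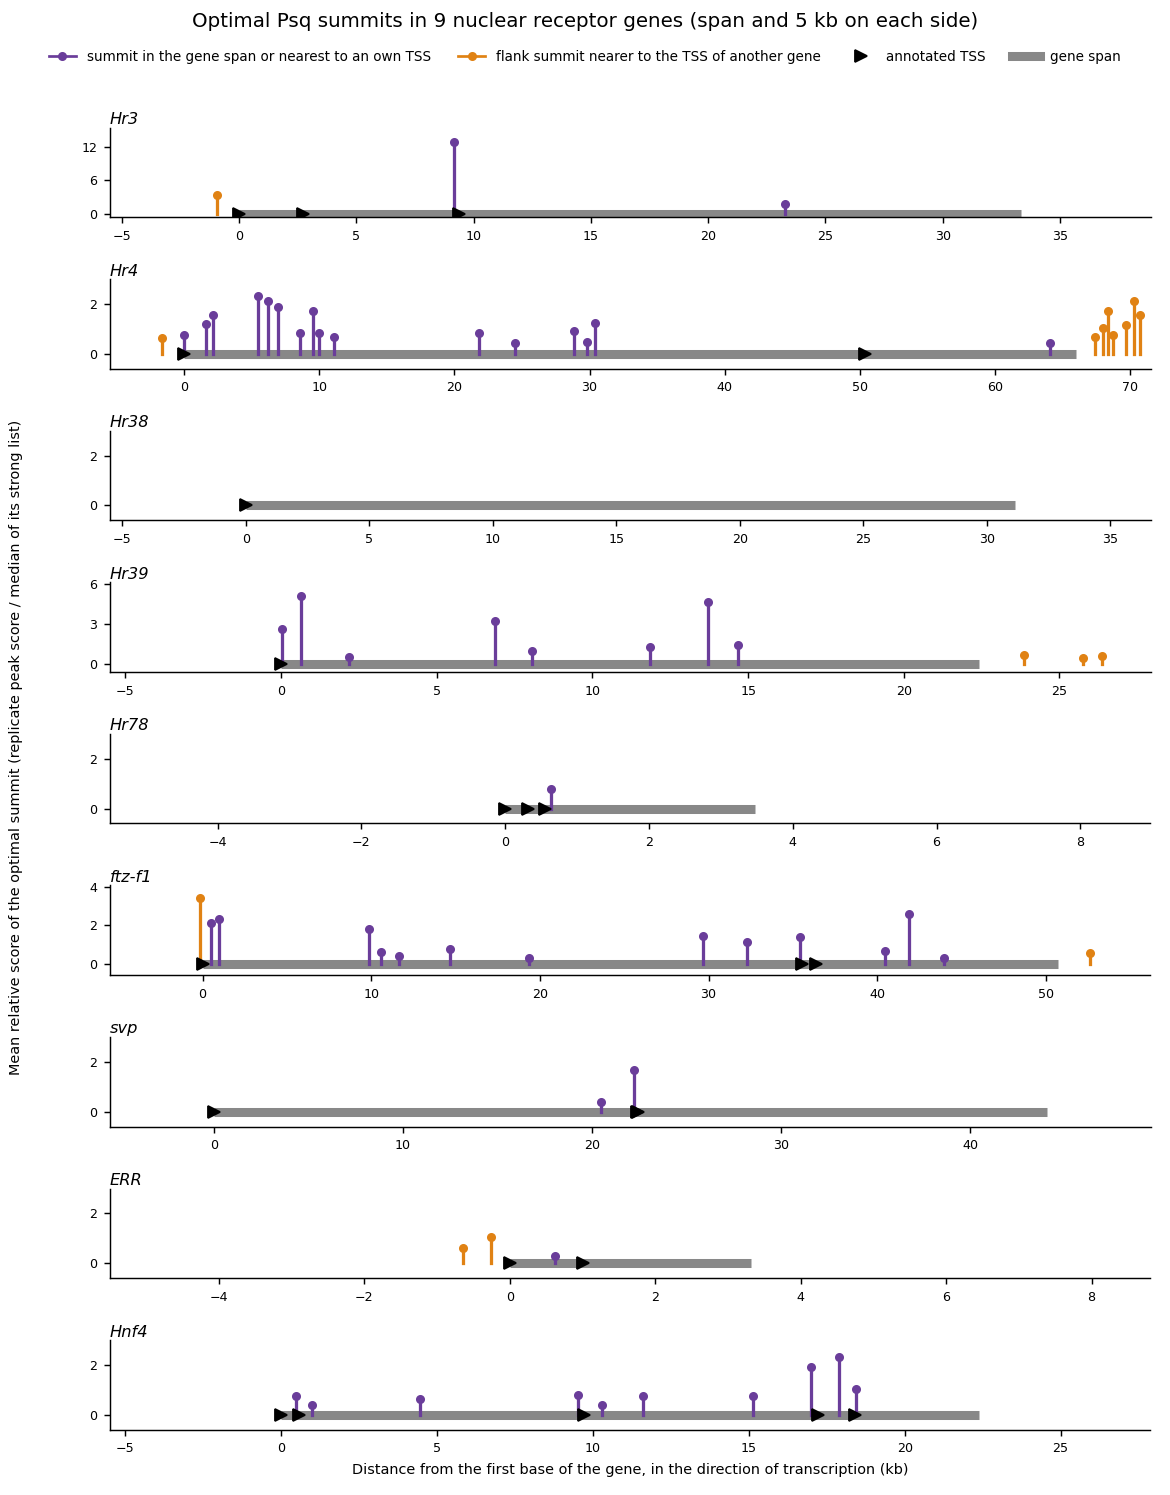
Position of each optimal Psq summit along the 9 genes (horizontal axis, kb from the first base in the direction of transcription) with its mean relative score over the replicates (vertical axis, scaled per gene). Grey bars are gene spans and triangles are TSSs. In Hr4, 9 intronic summits lie within 12 kb after the first TSS, and the largest gap between summits is 33704 bp. In Hr39, 7 of 11 summits are intronic. The orange flank summits are nearer to the TSS of another gene.

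Hr3, an orphan receptor induced by ecdysone that in prepupae activates ftz-f1, carried the strongest site of the set. Its peak at dm6 2R:10227955-10228324 ranked 19 of the 10105 nuclear optimal peaks, and its relative score was 11.9, 12.4 and 14.2 in replicates 1, 2 and 3 (12.8 ± 1.22, SD, n = 3). The summit lies 230 bp upstream of the TSS of transcripts RH, RA and RF, inside an intron of the longer transcripts, and 5 occurrences of GAGAG lie within 100 bp of it. This TSS is shared with CG46321, and CG12912 spans the site, so the peak belongs to these annotations as well. The other promoters of Hr3 were not bound: the nearest summit was 941 bp from the TSS of RD and 3682 bp from that of RI and RC.

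Hr3 (FBgn0000448, 2R:10203995-10237348, minus strand) had only 2 further summits, both strong in all 3 replicates. Upstream of the gene a summit had 4.46, 3.12 and 2.35 (3.31 ± 1.07, SD, n = 3), and it is 144 bp from the TSS of lncRNA:CR45265, inside Hdc, which encodes histidine decarboxylase. An intronic summit 13896 bp after the TSS had 2.34, 1.67 and 1.45 (1.82 ± 0.463, SD, n = 3). Neither window holds GAGAG, and in all replicates both stayed below the promoter peak. The strong lists held 5, 5 and 4 peaks in the Hr3 window, more than the 3 of the optimal list.

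Hr4, a receptor that represses early ecdysone-induced genes and is needed for ftz-f1 expression, had the most summits (FBgn0264562, X:1941940-2007956, plus strand). They formed a group behind the 5′ promoter: 9 lay in introns within 12 kb after the TSS, with mean relative scores of 0.682 to 2.34 and a median of 1.57. The highest, 5461 bp after the TSS, had 2.17, 2.46 and 2.38 (2.34 ± 0.149, SD, n = 3). The next, at 6232 bp, had 2.37, 2.81 and 1.17 (2.12 ± 0.848, SD, n = 3), so their order differed between replicates. At the promoter itself, 21 bp upstream of the TSS of 7 transcripts, the summit was weaker, with 0.764, 0.595 and 0.858 (0.739 ± 0.133, SD, n = 3). All 3 replicates had more at the 5461 bp site than at the promoter.

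The second Hr4 promoter, which starts RE and RF 50.4 kb further in, had no summit closer than 13739 bp. Of the other summits, 5 lay deeper in the introns, with means of 0.434 to 1.23, and a summit in the 3′ UTR had 0.432 ± 0.37 (SD, n = 3). In the flanks, 8 summits were each within 673 bp of the TSS of a neighbouring gene, which were CG3587 upstream and PIG-K, lncRNA:CR45478, mir-2496 and east downstream. The strongest of these, 79 bp from a TSS of east, had 2.56, 1.72 and 2.14 (2.14 ± 0.421, SD, n = 3), about the level of the highest intronic site of Hr4. Thus 16 of the 24 summits are in the gene or at its own promoter.

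The gene ftz-f1 encodes a receptor of the NR5A class, known as a cofactor of Ftz in the embryo and as the factor that makes prepupal tissues competent for the later ecdysone pulse (FBgn0001078, 3L:18750607-18801309, minus strand). Its 15 summits were spread along the gene, and 13 of them lay in its span. The highest was 130 bp upstream of the TSS of RB, with 2.52, 3.85 and 3.83 (3.4 ± 0.761, SD, n = 3), and lncRNA:CR45939 starts at nearly the same base, 127 bp from the summit. In the 5′ UTR behind it, summits at 510 and 1000 bp had means of 2.1 ± 0.779 and 2.34 ± 0.13 (SD, n = 3 each). The promoter of RD and RC, 35.6 kb downstream, was bound 163 bp upstream of its TSS, with 1.72, 1.74 and 0.678 (1.38 ± 0.605, SD, n = 3). The promoter of RA had its nearest summit 951 bp upstream, the same site, and was not called bound.

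Between and after the promoters of ftz-f1 the scores ranged widely. A summit 5517 bp after the TSS of RA had 2.56, 1.69 and 3.5 (2.59 ± 0.905, SD, n = 3), and it was the highest in the gene span. A GA-rich site 5908 bp upstream of the RD and RC TSS had 1.78, 1.92 and 0.59 (1.43 ± 0.731, SD, n = 3). A site 9887 bp after the RB TSS, without GAGAG, had 1.39, 1.87 and 2.09 (1.78 ± 0.36, SD, n = 3). The weakest, in an intron, had 0.48, 0.0759 and 0.307 (0.288 ± 0.203, SD, n = 3). Of the 15 summits, 8 were strong in all 3 replicates and 10 had GAGAG.

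Hr39, the other NR5A receptor of the fly, known for its part in the development of female reproductive glands, had strong sites in its introns (FBgn0261239, 2L:21237250-21259675, plus strand). At its only promoter a summit 31 bp after the TSS had 3.07, 2.89 and 1.86 (2.6 ± 0.654, SD, n = 3). The summit 652 bp after the TSS, in an intron and 399 bp from mir-9374, had 6.99, 5.34 and 2.95 (5.09 ± 2.03, SD, n = 3). The distal site, 13698 bp after the TSS, had 3.87, 4.42 and 5.51 (4.6 ± 0.833, SD, n = 3). The first of these was the higher in replicates 1 and 2 and the distal site in replicate 3, and their ranges overlap, so no order can be given. A further site, at 6883 bp, had 2.54, 3.43 and 3.68 (3.22 ± 0.6, SD, n = 3). The other 4 in the gene span had means of 0.55 to 1.44. In the downstream flank 3 weak summits, of 0.428 to 0.675, were near l(2)k14505, CG8671 and mir-4974.

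**Figure D3:**
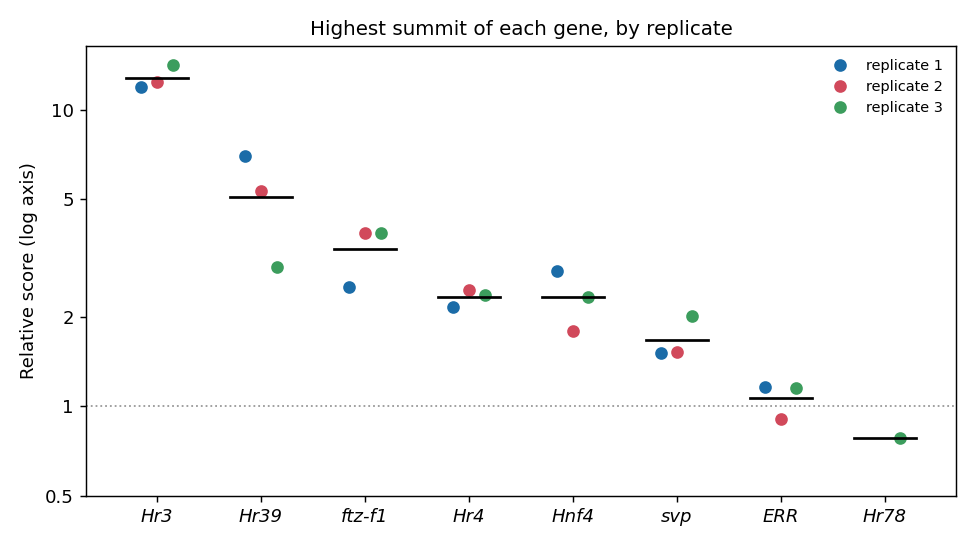
Relative score of the highest summit of each receptor gene (vertical axis, log scale, 1 is the median strong peak); points are replicates and bars are means. Hr3 stands at 11.9 to 14.2 above all others, Hr78 has a value in replicate 3 only, and Hr38 has no optimal summit and is not shown.

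The order of the members by their highest relative score was Hr3 (12.8), Hr39 (5.09), ftz-f1 (3.4), Hr4 (2.34), Hnf4 (2.34), svp (1.68), ERR (1.07) and Hr78 (0.78). Replicate ranges overlapped between Hr39 and ftz-f1, between Hr4 and Hnf4 and between Hnf4 and svp. The order of Hr4 and Hnf4 changed between replicates, so these neighbours cannot be ranked. At its summit with the highest mean, Hr39 was below ftz-f1 in replicate 3, with 2.95 against 3.83. The distal Hr39 site had 5.51 in that replicate. By the highest summit in each replicate, Hr39 was above ftz-f1 every time, with 6.99, 5.34 and 5.51 against 2.56, 3.85 and 3.83. Hnf4 was above svp in every replicate, with 2.87, 1.8 and 2.34 against 1.51, 1.52 and 2.02. Replicate ranges of these summits did not overlap between Hr3 and Hr39, between ftz-f1 and Hr4, or between svp and ERR. The gap between ftz-f1 and Hr4 was narrow, with a lowest value of 2.52 against a highest of 2.46. Other summits of the Hr4 window passed this lowest value: that near east had 2.56 in replicate 1, and the intronic one at 6232 bp had 2.81 in replicate 2. In replicate 2 ftz-f1 had 3.85. The order of ftz-f1 and Hr4 depends on the matching distance: with replicate peaks up to 500 bp from the summit, Hr4 had 4.92 and ftz-f1 3.4. Hr78, with a value in 1 replicate, lay below all 3 values of ERR. Of the 69 member summits 32 (46.4%) had scores above the median of all nuclear optimal peaks, and 6 (8.7%) were among the highest 10%.

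Hr78, an orphan receptor related to the vertebrate testicular receptors and required for larval development, had a single summit (FBgn0015239, 3L:21494019-21497494, minus strand). It lies 82 bp after the nearest own TSS, in coding sequence, and only replicate 3 had a peak within 200 bp of it, at 0.78. Each replicate nevertheless had a strong peak at the 5′ end of the gene, at differing positions. Replicate 1 had 0.832 at 146 bp after the first TSS, that of RD, RA, RB and RC, and replicate 2 had 0.614 at 23 bp upstream of it. Replicate 3 had 0.78 at 79 bp after another TSS, that of RF. The list called on all replicates together also held a peak 42 bp upstream of the first TSS, with a score of 68.3, below the lowest nuclear optimal score of 90.3.

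Hr38, the fly receptor of the NR4A class, known as an activity-induced gene in neurons and as a partner of Usp, was the member without an optimal summit (FBgn0014859, 2L:20683462-20714588, minus strand). The optimal summit nearest to its TSS was 46586 bp away. The permissive list called on all replicates together held 2 peaks in its window, both intronic, 13995 and 16421 bp after the TSS, with scores of 57.5 and 30.7, where the lowest nuclear optimal score was 90.3. A strong peak was present in replicate 1, at 0.559 and 1678 bp upstream of the TSS, and in neither other replicate. A median long gene has 3 optimal summits, while Hr38 spans 31127 bp.

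The gene svp encodes the COUP-TF receptor of the fly, which acts in photoreceptor fate and in the timing of neuroblast lineages (FBgn0003651, 3R:12258737-12302785, plus strand). Psq was at its internal promoter, which starts RA, RB, RF and RE: the summit 121 bp upstream had 1.51, 1.52 and 2.02 (1.68 ± 0.295, SD, n = 3). The other summit, 1907 bp upstream of the same TSS, had 0.297, 0.555 and 0.366 (0.406 ± 0.133, SD, n = 3) and was below the first in every replicate. Both windows had GAGAG, with 4 occurrences at the promoter and 5 at the weaker site. The promoter of RC, whose TSS is shared with CG44037, had its nearest summit 20466 bp away.

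ERR and Hnf4 are receptors best known for metabolic control. ERR, the estrogen-related receptor, switches on glycolytic genes for larval growth (FBgn0035849, 3L:8183361-8186671, minus strand). Its highest summit, 256 bp upstream of the RA TSS, had 1.16, 0.906 and 1.15 (1.07 ± 0.145, SD, n = 3), but it is closer, at 68 bp, to a TSS of the autophagy gene Atg18a, which it lies in. A summit 377 bp upstream of the RB TSS had 0.527, 0.16 and 0.22 (0.302 ± 0.197, SD, n = 3), and only replicate 1 had a strong peak there. The third, 648 bp upstream of the RA TSS and 324 bp from a TSS of Atg18a, had 0.629 ± 0.151 (SD, n = 3).

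Hnf4, which promotes the breakdown of fatty acids during starvation, was bound at all 5 of its promoters (FBgn0004914, 2L:8687226-8709611, minus strand). The promoters of RE and RA share a summit of 0.33, 1.03 and 0.898 (0.753 ± 0.373, SD, n = 3), with 11 GAGAG occurrences and the longest GA run at any member summit, 18 bp. The RD promoter had 0.774, 1.4 and 0.265 (0.813 ± 0.568, SD, n = 3), the RF promoter 2.13, 1.44 and 2.19 (1.92 ± 0.414, SD, n = 3) and the RB promoter 1.84, 0.734 and 0.493 (1.02 ± 0.718, SD, n = 3). At the RF promoter all 3 replicates were above 1, while at each of the others at least 1 replicate was below it. The summit shared by RE and RA lies 484 bp from the RE TSS and had no strong peak in replicate 1. The RD summit had no strong peak in replicate 3. The highest summit, 508 bp upstream of the RB TSS, had 2.87, 1.8 and 2.34 (2.34 ± 0.533, SD, n = 3). All 10 Hnf4 summits were in the gene span, and 9 were nearest to an own TSS.

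**Figure D4:**
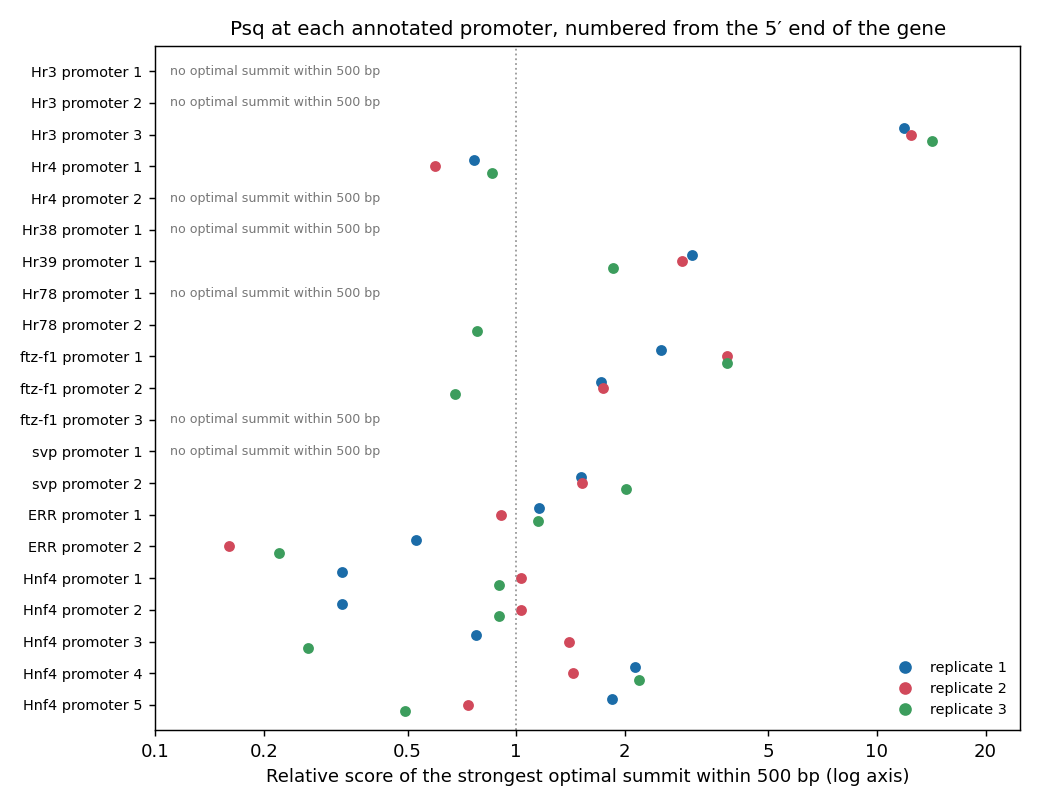
Relative score of the strongest optimal summit within 500 bp of each of the 21 member promoters, numbered from the 5′ end of the gene (horizontal axis, log scale, 1 is the median strong peak; points are replicates). Of these promoters 14 had a summit; Hr3 promoter 3 is the highest at 11.9 to 14.2, and all 5 promoters of Hnf4 have a summit.

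Where a gene had several promoters, optimal summits were not at all of them, except in Hnf4 and ERR. In Hr3 and svp the bound promoter was an internal one, in Hr4 it was the first and in ftz-f1 the first and second. In Hr78 the optimal summit was at an internal promoter, while the strong 5′ peaks of replicates 1 and 2 were nearest to the first. By the optimal list, no summit lay within 500 bp of the first promoter of Hr78. Of all member summits 14 (20.3%) were within 500 bp of an own TSS, against 22.5% of the summits in the windows of all protein-coding genes. In the replicates' own strong lists this share was 20.6% ± 0.999 (SD, n = 3). Most summits were intronic (43 of 69), 17 were in the flanks, 6 in 5′ UTRs, 2 in coding sequence and 1 in a 3′ UTR. Of the 21 summits within 1000 bp of an own TSS, 20 had a relative score in every replicate, as did 43 of the 48 farther ones. The Hr78 summit, at 0.78 in replicate 3, was thus left out. Median relative scores of the 20 were 1.61, 1.48 and 1.49 in replicates 1, 2 and 3. Those of the 43 were 0.839, 1.06 and 0.949, so the near ones were higher in each replicate. The same medians were taken over all nuclear optimal peaks with a score in every replicate, with the TSS of any gene. They were 1.14, 1.16 and 1.18 for 4845 peaks near a TSS and 0.943, 0.937 and 0.937 for 3807 farther away. For 38 of the 69 summits the TSS of another gene was nearer than an own one, as in the intron of Hr4 that holds the pseudogene CR46447.

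Many member peaks shared a width. Of the member peaks 24 (34.8%) had a width of exactly 264 bp, against 30.1% of all nuclear optimal peaks, and their mean relative scores were low, 0.288 to 0.95. Of these 24, 7 had a strong peak in all 3 replicates. At the other extreme, 6 member summits (8.7%) lay within 20 bp of an end of their peak, against 5.59% of all nuclear optimal summits, among them the GA-rich promoter sites of ftz-f1 and Hnf4.

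GAGAG, on either strand within 100 bp of the summit, was present at 35 of the 69 member summits (50.7%), against 45.3% of all nuclear optimal summits and 25% of 19275 windows of the same length at the TSSs of protein-coding genes. In the replicates' own strong peaks the members' share was 52% ± 3.69 (SD, n = 3). Of the 32 summits above the median nuclear score 65.6% had GAGAG, against 51.8% of all nuclear optimal summits above it. Below the median it was 37.8% of 37 member summits, against 38.7% of all. By gene, 13 of 24 summits had GAGAG in Hr4, 10 of 15 in ftz-f1, 5 of 11 in Hr39, 3 of 10 in Hnf4, 2 of 2 in svp, 1 of 3 in Hr3 and ERR, and 0 of 1 in Hr78.

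Other short sequences were searched in the same windows, also on both strands. GAGAGAGA, which contains GAGAG, was found at 18.8% of member summits, 8.65% of all nuclear optimal summits and 2.18% of TSS windows. CACACACA was found at 24.6%, 14.7% and 3.99% of them. Among the windows printed above it is at the strongest Hr4 site, the distal Hr39 site and the upstream ftz-f1 site. TATCGATA, the letters of the DREF element of housekeeping promoters, was at 1.45% of member summits, 2.89% of all and 6.44% of TSS windows. AGGTCA, the core letters of many nuclear receptor elements, was at 5 member summits (7.25%), 3.16% of all and 3.26% of TSS windows. These 5 were 2 in Hr4, 2 in ftz-f1 and 1 in Hr3. A match of letters is a description and not a site.

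Set beside the other genes of the cascade, the 9 members were not alone in their binding. Of the 12 other nuclear receptor genes 11 had a summit in the window and 8 within 1000 bp of an own TSS, and tll had none. Over all protein-coding genes these shares were 49.5% and 28.7%. Their highest scores were those of EcR, the ecdysone receptor (16.3 ± 0.6), and of the early receptor genes Eip75B (9.97 ± 1.68) and Eip78C (4.89 ± 0.539; SD, n = 3 each). They were followed by dsf, at 2.08 ± 0.525 (SD, n = 3), from a summit in its downstream flank, 18045 bp from its TSS. All 6 other transcription factors of the cascade had a summit within 1000 bp of an own TSS, with the highest scores at crol (15.2 ± 2.35), br (11.3 ± 0.82), Eip74EF (6.79 ± 1.08) and Kr-h1 (3.3 ± 0.393; SD, n = 3 each). The Kr-h1 value is from a summit in its downstream flank, 8948 bp from the nearest own TSS. Of the 6 co-regulators of nuclear receptors 5 had a summit in the window and 3 within 1000 bp, with none at rig. The corepressor gene Smr led with 23.5 ± 0.972, followed by tai at 3.49 ± 0.52, srl at 2.97 ± 0.484 and alien at 1.2 ± 0.281 (SD, n = 3 each). The srl summit is in the upstream flank, 4612 bp from the TSS, and the alien summit in the downstream flank, 8185 bp away. Like some other genes of these lists, dsf, srl and alien had summits only in the flanks and none in the gene span.

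The median of the highest relative score was 2.34 over the members, 1.44 over the other receptors, 5.04 over the cascade factors and 2.97 over the co-regulators. Summit density was 1.88 per 10 kb over the members, 2.56 over the other receptors, 2.55 over the cascade factors and 1.84 over the co-regulators. Bound promoters were 14 of 21, 15 of 25, 12 of 20 and 5 of 8 in the same order. In its highest score Hr3 (11.9 to 14.2) lay below EcR (15.8 to 16.9) in every replicate. The range of br (10.7 to 12.2) overlapped that of Hr3. In each replicate, though, Hr3 was the higher, with 11.9, 12.4 and 14.2 against 10.7, 11.1 and 12.2. Hr3 had 3 summits in its window where EcR had 33 and br 27.

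Genes with a like pattern were sought by the number of summits, the number within 500 bp of an own TSS and the highest optimal score. Hr4 had 24 summits, 1 near a TSS and a highest score of 431, and the protein-coding genes most like it were stx, with 18, 1 and 431, and nmo, with 21, 1 and 309. For ftz-f1, with 15, 2 and 657, they were dlp, with 15, 2 and 734, and tna, with 17, 2 and 690. Likeness was the Euclidean distance over log2(x + 1) of these 3 measures (0.396, 0.513, 0.161 and 0.184), taken from the optimal list.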

How the data were processed

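ChIP-seq peaks of GFP-tagged Psq from 3 biological replicates of whole larvae were analysed. The authors called peaks in each replicate and in the replicates combined, against 1 shared control alignment, and thresholded the optimal list by the irreproducible discovery rate (IDR), per the labels and the listings deposited with the samples. Peak caller, aligner and versions: not given in the sources used here. The authors deposited for each peak a score, whose scale is not stated, and a summit offset. The score was used to rank and describe peaks. All coordinates are dm6, and the dm3 lists were not used.

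Summit positions (1-based), distances to TSSs, relative scores and motif matches were computed with Python 3.11.15, numpy 2.4.6 and pandas 2.3.3, figures with matplotlib 3.10.9, and the steps were tested on simulated data. Genes were those of Ensembl release 115, without transposable elements and mature miRNA products listed as genes, and sequence was the NCBI RefSeq sequence of the assembly. The 33 mitochondrial peaks of the 10138 optimal peaks were left out. The list name Alien was matched to alien through a synonym. The 9 members are named in every result. Of the comparison lists, the 4 genes with the highest relative scores and those with no summit are named, and neighbours where their TSS is nearer to a summit. For the 2 members with most summits the 2 most similar genes are named. Members and lists were chosen with earlier results of these data known. Alternatives changed the flank, the list, the replicates, the distance limits, the matching, the scaling and the motif window. Depth is unknown, so no interval is given, and peaks are not independent replicates. Whether the replicates are separate larval collections is known only from their label as biological replicates.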

Additional observations from a re-analysis of the deposited data

How the results depend on the processing

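Of 118 values under alternative settings, 86 stayed within the limits set for a change and 32 moved; the cause was not tested where the setting does not itself fix it. The share of member summits with GAGAG (50.7%) was 57.7% without flanks, 57.9% with flanks of 1 kb, 65.6% in the higher-scoring part of the optimal list, 36.2% within 50 bp and 79.7% within 250 bp of the summit. The share within 500 bp of an own TSS (20.3%) was 24.6% with flanks of 1 kb, 19.2% with 10 kb, 21.9% in the higher-scoring part, 13% within 200 bp and 30.4% within 1000 bp. The share strong in all replicates (63.8%) was 100% in the higher-scoring part, 55.1% with matches within 100 bp and 30.4% with 5000 strong peaks a replicate. The higher-scoring part left 32 summits, 0.872 per 10 kb, and none in Hr78. Leaving out each replicate in turn gave a share in both other strong lists of 69.6% each time, a share within 500 bp of 18.8 to 20.8%, a GAGAG share of 52.1 to 56.2% and a highest Hr4 score of 2.35 to 2.59; 48 summits and 7 members then remained each time, since the Hr78 summit has support in replicate 3 alone. Matching within 500 bp raised Hr4 to 4.92, above ftz-f1 (3.4), and Hr78 to 0.806. Dividing by the median of all peaks of a replicate gave 43.5 for Hr3, 17.6 for Hr39, 11.6 for ftz-f1, 7.96 for Hr4, 7.96 for Hnf4, 5.7 for svp, 3.65 for ERR and 2.48 for Hr78, the same order. Taking the nearest in place of the highest replicate peak, and counting only summits in the gene or nearest to an own TSS, were chosen after seeing the data; the first moved no value past its limit and the second left 53 of the 69 summits. No paired analysis was possible because there is a single group.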
